A study of Mus musculus with 48 samples.

Results

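Imipramine (IMN), a tricyclic antidepressant that blocks the reuptake of serotonin and noradrenaline, was compared with vehicle in the amygdala of female Brd1+/- mice. The comparison rests on 16 of the 48 libraries of the series, 8 from Brd1+/- mice given 10 mg/kg IMN and 8 from Brd1+/- mice given vehicle, chosen by their sample labels. All mice were of the strain labelled C57BL/6NTac-Brd1 and were 8 to 11 weeks old. Brd1+/- mice come from a line heterozygous for a targeted deletion of part of Brd1's coding exons, and WT mice were their littermates. Per the study's methods, vehicle was saline, injections were subcutaneous on both days of behavioural testing, and tissue was punched from the right amygdala after a forced swim on the second day. WT mice given vehicle or 10 mg/kg IMN (8 each) are used below to test whether the difference depends on genotype, and Brd1+/- and WT mice given 5 mg/kg fluoxetine (FLX, 8 each) appear as levels only. Each library stands for a separate mouse. Levels are TPM, a share of each library's transcripts scaled by gene length, so the read depth behind a value is unknown and short genes can reach high values from few reads.

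BRD1 is a scaffold of histone acetyltransferase complexes and binds acetylated histones, and its partial loss was used here as a model of a psychiatric risk gene. Brain tissue holds, beside messenger RNA, several kinds of noncoding RNA that matter below. Small nucleolar (snoRNA) and small Cajal body RNAs (scaRNA) guide the chemical modification of ribosomal and spliceosomal RNA and are mostly cut out of introns. 7SL RNA is the backbone of the signal recognition particle, which brings secreted and membrane proteins to the endoplasmic reticulum. Malat1 is an abundant long RNA held in the nucleus. Mitochondrial tRNAs lie between the coding genes of the mitochondrial genome and are released from long shared transcripts. Many further annotated genes are short stretches inside introns of coding genes, where reads from unspliced transcripts of the host would also fall.

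The RNAs on which the comparison turns are shown first, since most of them are too short to be known by name. Scarna9, Gm24339 and Gm26498 are small nucleolar RNA genes with a C box (TGATGA) and, in their last bases, a D box (CTGA), both printed in capitals. Of the 458 annotated snoRNA and scaRNA transcripts of 60 to 100 bases, 69.9% hold these letters in this order on their own strand. Scarna9 (GRCm38 chr9:15326264-15326333, minus strand) and Gm24339 (chr9:15326464-15326539, minus strand) lie in introns of Cep295, and Gm26498 is at chr7:59386081-59386159 (minus strand).
Scarna9: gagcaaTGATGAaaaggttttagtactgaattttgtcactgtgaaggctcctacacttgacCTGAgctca
Gm24339: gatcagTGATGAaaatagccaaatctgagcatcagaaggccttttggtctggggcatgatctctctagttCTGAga
Gm26498: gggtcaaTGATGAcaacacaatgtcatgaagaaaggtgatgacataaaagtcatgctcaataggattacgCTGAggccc

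The mitochondrial tRNAs for histidine, serine and leucine (mt-Th, mt-Ts2, mt-Tl2) follow each other without a gap between chrM:11546 and chrM:11741 on the plus strand, and that for proline (mt-Tp, chrM:15356-15422) is read from the opposite strand. Their anticodons are in capitals, found as the matching 3 bases in the middle of a loop of 7 bases.
mt-Th: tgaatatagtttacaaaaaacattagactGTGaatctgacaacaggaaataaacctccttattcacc
mt-Ts2: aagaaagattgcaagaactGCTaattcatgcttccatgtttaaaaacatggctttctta
mt-Tl2: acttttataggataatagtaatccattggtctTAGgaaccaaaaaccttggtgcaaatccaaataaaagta
mt-Tp: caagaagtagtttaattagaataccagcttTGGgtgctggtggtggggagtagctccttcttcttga

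Rn7s1 and Rn7s2, on chromosome 12, are copies of the 7SL gene with 0 mismatches between them, so that a read cannot be assigned to either and their levels stand for the pair.

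For 3 microRNA genes the mature form in RefSeq (GRCm38.p6) is shown with its seed, bases 2 to 8, in capitals, and no seed is shared among them. The libraries measured RNA over the annotated hairpin, and the mature form was not measured apart from it.
mmu-miR-487b-5p: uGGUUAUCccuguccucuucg
mmu-miR-376c-5p: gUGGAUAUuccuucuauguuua
mmu-miR-1963: uGGGACGAgaucaugaggccuuc

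Brd1 itself was measured first. In Brd1+/- vehicle mice its lowest, median and highest levels were 21.8, 26.2 and 30.6 TPM, and in Brd1+/- IMN mice 16.6, 22.8 and 29.5 TPM. The groups overlapped almost wholly, and the log2 difference of -0.17 was not larger than the spread between mice (two-sided exact permutation test over 12870 arrangements, p = 0.182). WT mice averaged 35.6 ± 5.09 TPM with vehicle and 36.9 ± 2.83 TPM with IMN (SD, n = 8 each), above the Brd1+/- means of 26.0 ± 2.90 and 23.4 ± 4.84 TPM (SD, n = 8). Brd1+/- mice were lower than WT by 0.45 on the log2 scale under vehicle (exact permutation p = 0.00109) and by 0.68 under IMN (p = 0.000155, the smallest this exact test can give), so the genotype labels and Brd1 levels point the same way, although reads from the exons kept by the altered allele also count.

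Before the genes are described, 1 feature of the groups has to be stated. Most genes lower with IMN in Brd1+/- mice were higher in Brd1+/- vehicle mice than in the other 5 groups of the series, with mt-Th and mt-Tl2 close to them in WT IMN mice. For 179 of the 184 genes called lower below, Brd1+/- vehicle had the highest mean of the 6 groups, and for 43 of them every Brd1+/- vehicle library lay above each of the 40 other libraries. These genes were chosen for being higher in Brd1+/- vehicle than in Brd1+/- IMN mice, so this ranking follows in part from the choice. The same shares over all genes were not counted. The median over these genes of the group mean was 0.523 TPM in Brd1+/- vehicle mice, against 0.0527 in Brd1+/- IMN, 0.0843 in WT vehicle, 0.103 in WT IMN, 0.0767 in Brd1+/- FLX and 0.0734 TPM in WT FLX mice. The sample codes in the labels fall in separate ranges for vehicle and IMN mice, so that anything that followed the codes cannot be told apart from the drug.

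Across the whole transcriptome, IMN was accompanied by lower levels of noncoding RNAs in Brd1+/- mice and by few changes in messenger RNAs. Of 24225 genes tested with limma, 188 (0.776%) were called at a Benjamini-Hochberg adjusted p under 0.05, of which 184 (0.76%) were lower and 4 (0.0165%) higher with IMN. In 97 of the 184 the groups did not overlap, as in 0.45% of all genes. Of these calls 172, or 91.5%, were not protein-coding genes, a kind that made up 36.7% of the genes tested. At an unadjusted p under 0.05 there were 2252 genes (9.3%), 1796 lower (7.41%) and 456 higher (1.88%), while the median log2 difference over all genes was -0.03. The lower calls were mostly faint RNAs, with a vehicle mean under 1 TPM for 134 and at least 1 TPM for 50 of them, and 76.6% had a single exon against 28.6% of all genes tested.

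A gene entered the test with at least 0.1 TPM in at least 8 libraries, and 30 of the 184 lower genes did so through the 8 vehicle libraries alone, with no IMN library at 0.1 TPM. Mir487b, Gm25252, Gm37899, Gm42908 and Gm37814, described below, are among these 30. In 62 of the 184 at least 4 IMN libraries also reached 0.1 TPM, and 8 were listed at 0 in every IMN library. Leaving out 1 library at a time gave between 89 and 174 calls. The number fell by more than 1.5 times without vehicle replicate 2 (112 calls), 3 (102), 4 (89), 5 (96), 6 (99) or 8 (95), where between 140 and 143 of the 188 genes still entered the test and all of those kept their direction.

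**Figure D1:**
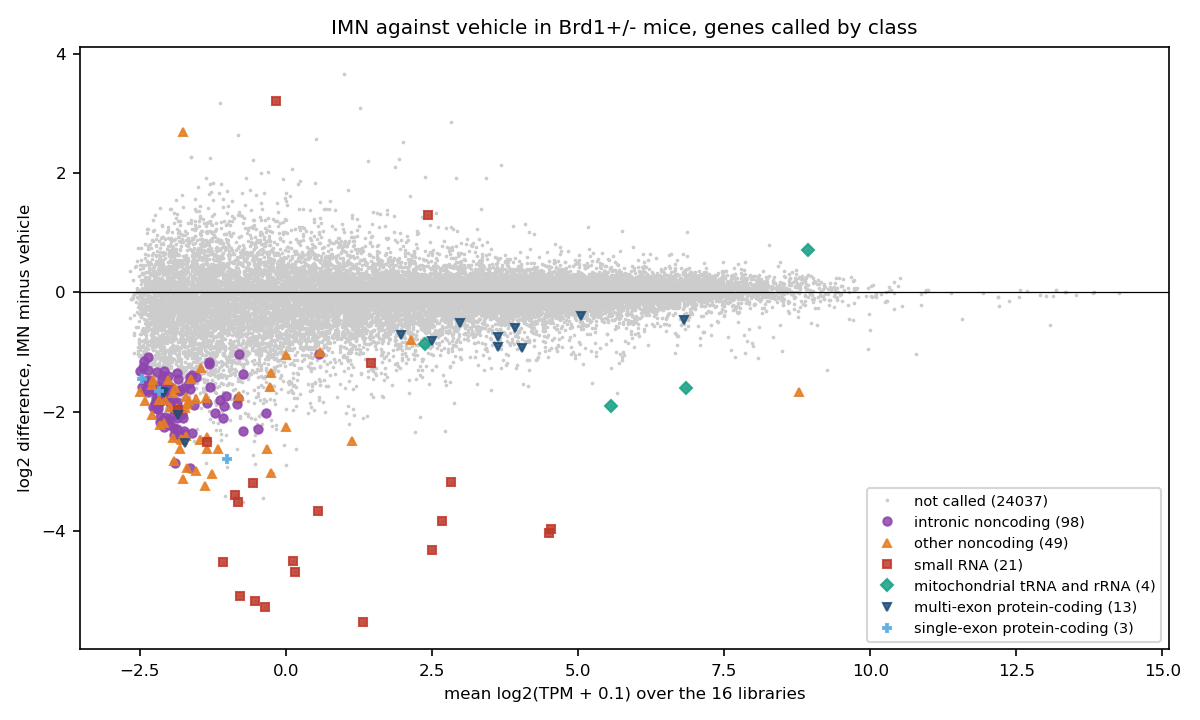
Each point is 1 of 24225 genes tested in Brd1+/- mice, with the mean log2(TPM + 0.1) over the 16 libraries on the x axis and the log2 difference (IMN minus vehicle) on the y axis; grey points were not called, and coloured shapes mark the 188 calls by gene class. The calls lie almost all below 0, with intronic genes crowded at low levels and small RNAs at the largest differences.

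The signal recognition particle RNA showed the most certain difference. Rn7s1 stood at a lowest, median and highest level of 68.1, 89.9 and 122.1 TPM with vehicle and at 2.16, 5.72 and 9.38 TPM with IMN. Every vehicle library was thus far above every IMN library. The log2 difference was -4.02 ± 0.24 (SE, adjusted p = 1.99e-07), and its identical copy Rn7s2 gave -3.96 ± 0.27 (adjusted p = 3.77e-07). Gm47295 and Gm47299, annotated as microRNA genes within these copies and thus sharing their reads, fell as well. Gm26461, another miscellaneous small RNA gene inside an intron of Zfp949, went from a mean of 21.8 ± 4.60 to 2.44 ± 0.90 TPM (SD, n = 8 each, log2 difference -3.17, adjusted p = 7.47e-07).

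The proteins that bind 7SL RNA were not called. All 8 genes for signal recognition particle proteins were tested and 0 were called by limma, with 0 at an unadjusted p under 0.05 and differences from -0.04 (Srp68) to 0.16 (Srp9). 7SK RNA (Rn7sk), a small RNA that holds back a transcription elongation factor, ranged from 6.16 to 11.7 TPM with vehicle and from 5.07 to 15.2 TPM with IMN, and its log2 difference of 0.20 ± 0.19 did not pass the test (adjusted p = 0.848). Rn7s6, a further 7SL copy on chromosome 6, was above 0 in 7 of 8 vehicle libraries, with a mean of 39.0 ± 18.7 TPM over all 8, and listed at 0 in all 8 IMN libraries. It reached 0.1 TPM in only 7 libraries and so did not enter the test.

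The scaRNA genes leaned lower as a class, with a median log2 difference of -0.53 over the 20 tested beside -0.03 for all genes, while the 297 snoRNA genes tested had a median of -0.06 and a few members with large differences. Scarna9, which belongs to the guides of spliceosomal RNA modification and whose sequence is given above, was at 2.41, 4.22 and 9.40 TPM (lowest, median, highest) with vehicle. With IMN it was listed at 0 in 7 of 8 libraries and at 0.546 TPM in IMN replicate 1. The groups did not overlap, and the log2 difference was -5.26 ± 0.40 (adjusted p = 1.15e-06). Gm24339, its neighbour in Cep295, was at 2.41, 6.52 and 11.2 TPM with vehicle and above 0 in only 2 IMN libraries, the higher at 2.55 TPM, so that the groups just overlapped (log2 difference -4.68 ± 0.74, adjusted p = 0.00304). Cep295 itself, a centriole gene, averaged 24.7 ± 3.79 and 24.3 ± 4.11 TPM (-0.03 ± 0.12). Gm22009, a scaRNA gene of 343 bases in an intron of Kpna4, had the largest difference of all calls with a mean of at least 1 TPM. Its level was 11.3, 17.6 and 25.4 TPM with vehicle and 0, 0.565 and 0.878 TPM with IMN (log2 difference -5.51 ± 0.54, adjusted p = 2.06e-05), and the groups were far apart.

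Scarna2 (-2.50 ± 0.53, adjusted p = 0.0342) and Snord71, a guide in an intron of Ap1g1 (-1.19 ± 0.24, adjusted p = 0.021), were also lower. Of the 20 scaRNA genes 2 were called (10.0%), both lower, and 3 were lower and 0 higher at an unadjusted p under 0.05. Of the 297 snoRNA genes 4 were called (1.35%, beside 0.776% of all genes), 3 lower and 1 higher, while 15 were lower and 16 higher at an unadjusted p under 0.05. The higher one was Gm26498, at 1.66, 3.33 and 9.77 TPM with vehicle and 5.10, 8.60 and 12.8 TPM with IMN. Its groups overlapped (adjusted p = 0.0469), and the call was lost in all but 2 of the fits that left out 1 library, those without vehicle replicate 4 or IMN replicate 2. The 11 tested proteins of snoRNA and scaRNA particles, such as Nop58 (-0.31) and Nop56 (0.28), gave 0 calls by limma and 0 genes at an unadjusted p under 0.05.

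Several lower RNAs come from 1 imprinted region of chromosome 12, between Dlk1 and Dio3 (GRCm38 chr12:109452823-110281097), which is known for its maternally expressed noncoding RNAs and a large microRNA cluster. The region was singled out after its values were seen. Of 63 genes tested there 9 were called, all lower, where 0.76% of all genes were called lower, and the median log2 difference over the 63 was -0.40 beside -0.03 for all genes. Mir487b was at 1.09, 4.28 and 8.58 TPM with vehicle and listed at 0 in all 8 IMN libraries (fitted log2 difference -5.09, which depends on the pseudocount, adjusted p = 1.02e-06). It entered the test through the vehicle libraries alone. Mir376c was at 0.562, 1.68 and 7.61 TPM with vehicle and above 0 in only 2 IMN libraries (-3.38 ± 0.62, adjusted p = 0.0109). Gm27379, annotated as a microRNA gene a short way downstream, was above 0 in 8 vehicle libraries and in 1 IMN library (-5.17 ± 0.35, adjusted p = 3.77e-07).

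Gm25252 and Gm44322 lie opposite Mir376a and Mir539 and cannot be told from them if reads were counted without strand. The first was listed at 0 in all IMN libraries and the second averaged 6.57 ± 5.20 TPM with vehicle and 0.317 ± 0.463 TPM with IMN. Of the long RNAs of the region some were called and others not. B830012L14Rik averaged 1.22 ± 0.55 TPM with vehicle and 0.0621 ± 0.083 TPM with IMN (-3.04 ± 0.35, adjusted p = 1.39e-04), and Gm26945 5.88 ± 1.48 and 3.34 ± 0.74 TPM (-0.79 ± 0.18, adjusted p = 0.0469), while Meg3, Rian and Mirg did not pass the test. Meg3 averaged 1026 ± 261 TPM with vehicle and 1103 ± 249 TPM with IMN (log2 difference 0.12 ± 0.17, adjusted p = 0.922). Rian gave 0.24 ± 0.12 (adjusted p = 0.581) and Mirg, which overlaps further microRNAs of the cluster, 0.16 ± 0.20 (adjusted p = 0.904). Gm37899, a single-exon gene between Rian and Mirg on the same strand, was at 0.648, 1.12 and 2.18 TPM with vehicle and at most 0.0717 TPM with IMN (-3.24 ± 0.24, adjusted p = 8.12e-07). Gm37899 and Gm25252 entered the test through the vehicle libraries alone.

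Genes inside introns made up more than any other class of the calls. Of 1237 intronic noncoding genes tested, 98 (7.92%) were called and all 98 were lower with IMN, against 0.76% called lower over all genes. At an unadjusted p under 0.05, 373 of the 1237 were lower, the 98 calls among them, and 6 higher. The median log2 difference of the class, calls included, was -0.30. Genes of the class that were not called, with those too low to be tested, summed to a mean of 6714 TPM with vehicle. With IMN they summed to 6541 TPM (log2 difference -0.04, not tested). The lean of the class was wider in the 645 intronic genes annotated only as transcribed regions (TEC), calls included, with a median of -0.58. Of these, 285 were lower and 2 higher at that threshold. Of the 117 intronic genes tested that are annotated as sense-intronic, 42 were lower and 0 higher. Over all genes tested, 7.41% were lower and 1.88% higher at that threshold. Genes of these classes could enter the test through the vehicle libraries alone, and how many did so was not counted.

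The genes that host these RNAs were not called. The 105 called genes inside an intron, which add 6 small RNAs and 1 single-exon coding gene to the intronic class, lay in 82 host genes, 81 of which were tested and 0 of which were called by limma, with 2 lower and 1 higher at an unadjusted p under 0.05. The hosts' differences ran from -0.39 to 0.64 with a median of -0.01, beside a median of -1.74 for the genes in their introns. The intronic genes were chosen by their own calls and the hosts were not, so this gap follows in part from the choice. Over all 1726 genes tested inside an intron, called or not, the median was -0.24. Gm42908, in an intron of Mlxip, a glucose-sensing transcription factor, was at 0.427, 0.593 and 1.00 TPM with vehicle and at 0 in all 8 IMN libraries (adjusted p = 3.77e-07). Mlxip itself was at 17.2 ± 1.71 TPM with vehicle and 17.1 ± 3.79 TPM with IMN (log2 difference -0.03 ± 0.13). Gm37814, in an intron of Frmd4a, was at 0.400, 0.481 and 0.738 TPM with vehicle and at most 0.0572 TPM with IMN (-2.39 ± 0.21, adjusted p = 5.82e-06), while Frmd4a gave -0.20 ± 0.20. Both Gm42908 and Gm37814 entered the test through the vehicle libraries alone.

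**Figure D2:**
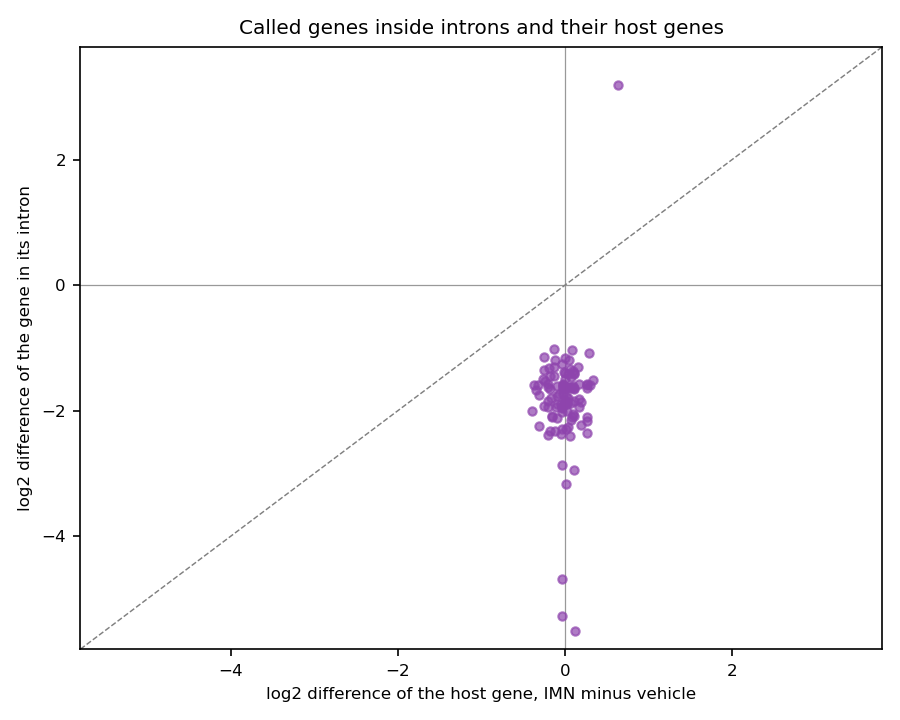
Each point is a called gene that lies in an intron, with the log2 difference (IMN minus vehicle) of its host gene on the x axis and its own on the y axis; the dashed line marks equal differences. The host genes stay between -0.39 and 0.64 while the genes in their introns, apart from Mir1963 in Ryr1, lie below -1. The intronic genes shown were chosen by their own calls and the hosts were not.

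In all, 14 hosts held at least 2 called genes. Dlg2, which encodes a postsynaptic scaffold protein, held 6 of them among 9 noncoding genes tested inside it, and Dlg2 itself gave 0.27 ± 0.21 (adjusted p = 0.793). Frmd4a held 5 of 5, Mlxip 3 of 3, Kcnip4, a potassium channel partner, 3 of 9, and Ank2, an ankyrin of the membrane skeleton, 3 of 8. All 9 genes tested inside Kcnip4 and 7 of the 8 inside Ank2 had a difference under 0. The other 3 tested inside Dlg2 had a difference of 0 or above.

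The called intronic genes carried little RNA in total. Together they summed to between 38.4 and 65.0 TPM per vehicle library and to between 6.65 and 9.06 TPM per IMN library, which describes the choice of genes and was not tested. The whole intronic class summed to between 6239 and 7223 TPM with vehicle and between 5857 and 7212 TPM with IMN, a log2 difference of -0.05 (exact permutation p = 0.27, 0.54 adjusted over 6 classes). None of the 6 classes differed in its sum at an adjusted p under 0.05. The nearest was the small RNA class, at 9182 ± 1189 TPM with vehicle and 7920 ± 870 TPM with IMN (log2 difference -0.21, exact permutation p = 0.0292, 0.175 adjusted).

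Split by annotated biotype, a split chosen after the classes had been seen, the summed scaRNA level fell from 78.3 ± 15.0 to 53.5 ± 8.23 TPM (log2 difference -0.54, exact permutation p = 0.0014, 0.0168 adjusted over 12 biotypes). The summed snRNA (-0.22, adjusted p = 0.0329 by the exact test), TEC (-0.18, 0.0329), sense-intronic (-0.19, 0.0395), ribosomal (-0.52, 0.0395) and miscellaneous RNA levels (-0.51, 0.0485) were also lower. Called genes make up part of the scaRNA, TEC, sense-intronic and miscellaneous RNA sums. Of the 120 snRNA and 20 ribosomal RNA genes tested, 0 were called. Gm22009 alone averaged 17.5 ± 4.96 and 0.457 ± 0.397 TPM within the scaRNA sum, and Rn7s1, Rn7s2 and Gm26461, with vehicle means of 92.9, 93.8 and 21.8 TPM, count in the miscellaneous RNA sum. The summed snoRNA level was 1161 ± 150 TPM with vehicle and 1170 ± 134 TPM with IMN (0.01, adjusted p = 0.89). The number of genes listed above 0 was between 25387 and 27252 with vehicle and between 23420 and 26549 with IMN, a mean difference of -1413 genes (exact permutation p = 0.00622). Here too Brd1+/- vehicle stood apart, with a mean of 26271 genes against 24858 in Brd1+/- IMN mice. The means were 25082.5 in WT vehicle, 24893 in WT IMN, 25173 in Brd1+/- FLX and 24666.5 in WT FLX mice.

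Malat1 was the most abundant RNA among the calls. Its lowest, median and highest levels were 637, 765 and 1031 TPM with vehicle and 176, 245 and 335 TPM with IMN, so the groups did not overlap. The log2 difference was -1.66 ± 0.16 (adjusted p = 1.71e-05). Other RNAs held in the nucleus were not called. Neat1, which builds paraspeckles beside Malat1 on the chromosome, gave -0.90 ± 0.47 (adjusted p = 0.599) with vehicle levels of 12.8 to 78.7 TPM, and of the 11 nuclear RNAs listed 4 lay below 0 and 7 above, with a median of 0.08.

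**Figure D3:**
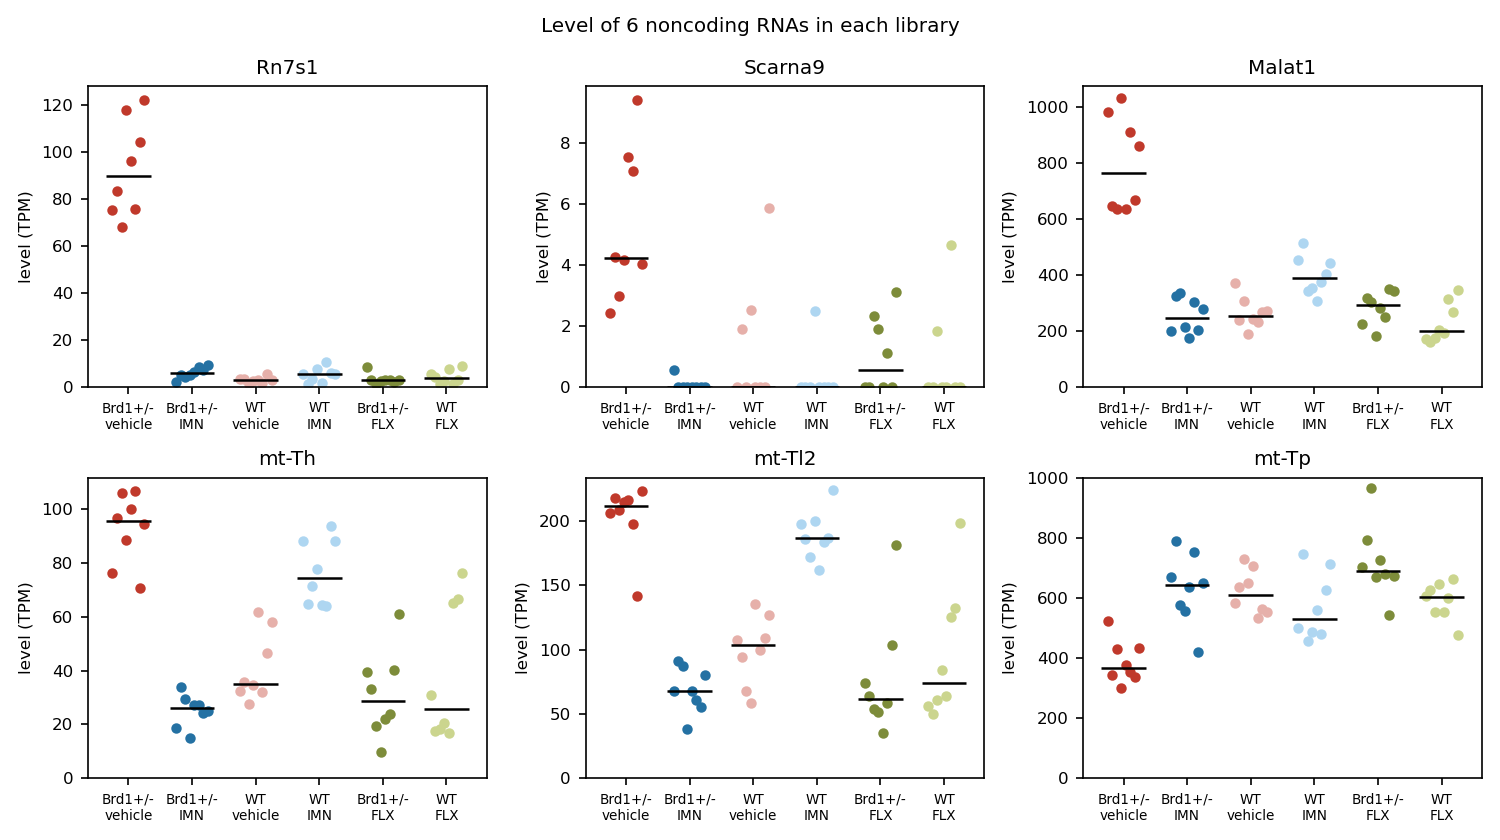
Levels in TPM (y axis, from 0) of 6 noncoding RNAs in each of the 48 libraries, by group on the x axis; points are libraries and bars are group medians. Rn7s1 and Malat1 are higher in all 8 Brd1+/- vehicle libraries than in the other 40, Scarna9 is above 0 in 8 of 8 of them and in 4 or fewer of 8 elsewhere, mt-Th and mt-Tl2 have their highest medians in Brd1+/- vehicle and WT IMN mice, and mt-Tp has its lowest median in Brd1+/- vehicle mice.

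The mitochondrial tRNAs moved in both directions. mt-Th was at 70.6, 95.4 and 107 TPM (lowest, median, highest) with vehicle and at 14.8, 26.1 and 34.0 TPM with IMN, a log2 difference of -1.90 ± 0.15 (adjusted p = 1.27e-06). mt-Tl2 was at 141, 212 and 223 TPM with vehicle and 38.2, 68.0 and 91.3 TPM with IMN (-1.60 ± 0.15, adjusted p = 1.77e-05). mt-Ts2, which lies between them and shares 1 base with mt-Tl2, was at 5.79, 7.24 and 8.28 TPM with vehicle and 2.98, 3.68 and 4.87 TPM with IMN (-0.87 ± 0.13, adjusted p = 0.00129). In none of the 3 did the groups overlap. The next tRNA genes upstream on the same strand, mt-Tg (-0.79 ± 0.21, adjusted p = 0.129) and mt-Tr (-0.70 ± 0.16, adjusted p = 0.061), did not pass the test.

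mt-Tp went the other way. It was at 300, 366 and 524 TPM with vehicle and 421, 644 and 789 TPM with IMN, so that the groups overlapped (log2 difference 0.70 ± 0.13, adjusted p = 0.0127). The call was lost with median-ratio scaling (0.72, adjusted p = 0.0648) and after quantile normalization (0.64, adjusted p = 0.0617). Of 22 mitochondrial tRNAs, all tested, 4 were called (18.2%, beside 0.776% of all genes), 3 lower and 1 higher. A difference under 0 was found in 20 of the 22, with a median of -0.22 beside -0.03 for all genes. The 13 mitochondrial messenger RNAs gave 0 calls by limma, 0 at an unadjusted p under 0.05 and a median of 0.01. mt-Nd4 (-0.06) and mt-Nd5 (0.04), the coding genes on either side of the histidine, serine and leucine tRNAs, were among them.

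**Figure D4:**
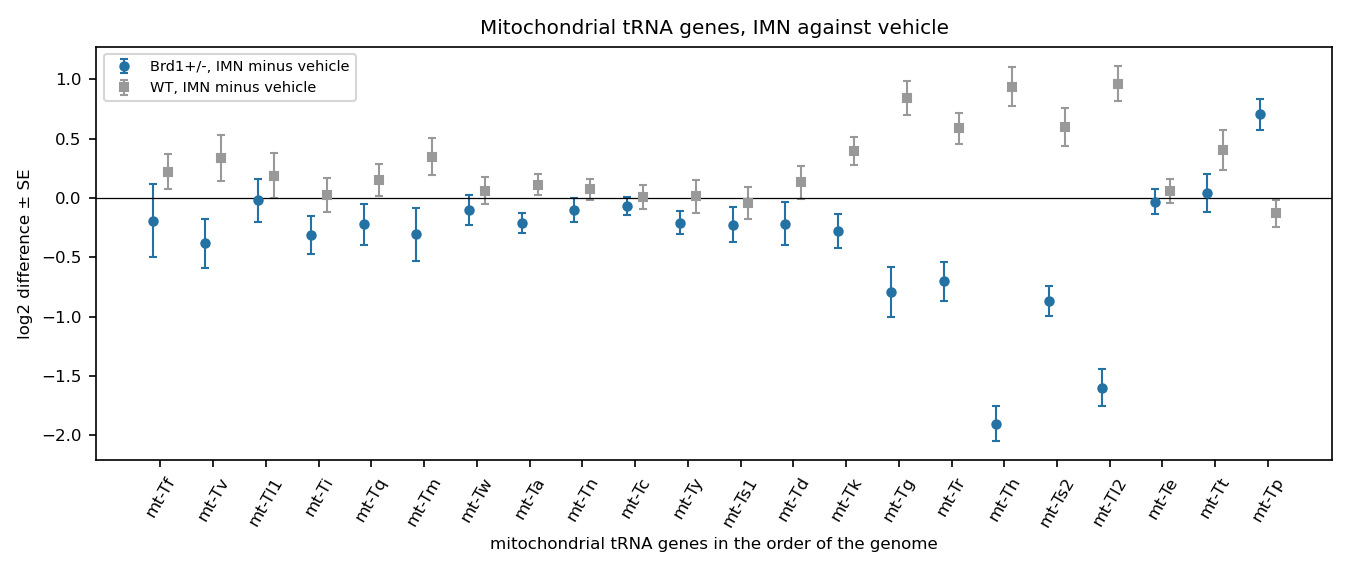
Log2 difference (IMN minus vehicle, y axis) with its standard error for the 22 mitochondrial tRNA genes in genome order (x axis), in Brd1+/- mice (circles) and in WT mice (squares). In Brd1+/- mice mt-Th, mt-Ts2 and mt-Tl2 fall by 0.87 to 1.90 and mt-Tp stands at 0.70, while in WT mice the first 3 lie above 0.

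Besides mt-Tp and Gm26498, the genes that rose with IMN were 2. Mir1963, in an intron of the ryanodine receptor gene Ryr1, was above 0 in 4 vehicle libraries, the highest at 1.09 TPM, and between 1.36 and 5.33 TPM in the 8 IMN libraries (log2 difference 3.20 ± 0.61, adjusted p = 0.0144). The call was lost with a pseudocount of 0.01 (adjusted p = 0.0764), with at least 1 TPM in 8 libraries (0.0671) and in the fit of all 48 libraries (0.107). The groups of Mir1963 did not overlap, while Ryr1 varied from 0.564 to 40.5 TPM with vehicle and from 2.54 to 34.7 TPM with IMN (adjusted p = 0.886). Gm45193, a processed transcript of chromosome 6 that overlaps Herc6, was above 0 in 1 vehicle and 7 IMN libraries (2.69 ± 0.54, adjusted p = 0.0215), with a mean of 0.949 TPM under IMN.

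Messenger RNAs differed little. Tested by themselves, 0 of 14718 multi-exon protein-coding genes were called by limma, with 1103 (7.49%) at an unadjusted p under 0.05, 840 lower (5.71%) and 263 higher (1.79%). In the fit of all genes, where the strong noncoding calls ease the adjustment, 13 of them passed the threshold, all lower (0.0883%). Those with a mean of at least 1 TPM and the largest differences were Cxcl12, Abcg2, Mcc, Cep97 and Rorb. Cxcl12, a chemokine of vessels and of neuronal migration, was at 14.9, 24.4 and 26.8 TPM with vehicle and 7.07, 10.9 and 19.9 TPM with IMN (-0.94 ± 0.19, adjusted p = 0.0275). Abcg2, a drug efflux pump of the blood-brain barrier, was at 11.8, 18.3 and 21.9 TPM with vehicle and 5.43, 9.42 and 13.9 TPM with IMN (-0.91 ± 0.20, adjusted p = 0.0481). In both genes the groups overlapped.

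Mcc, a negative regulator of cell cycle progression, averaged 7.59 ± 1.73 and 4.26 ± 1.03 TPM (-0.82 ± 0.17, adjusted p = 0.0339). Cep97, which restrains cilium formation, gave -0.75 ± 0.17 (adjusted p = 0.045), and Rorb, a nuclear receptor that marks cortical layer neurons, -0.71 ± 0.15 (adjusted p = 0.0367). Zmat3, a p53 target that binds RNA, and Dusp11, a phosphatase that acts on RNA ends, had smaller differences. Zmat3 went from 38.2 ± 3.43 to 29.2 ± 3.27 TPM (-0.39 ± 0.08, adjusted p = 0.0339) and Dusp11 from a median of 138.9 to 94.9 TPM (-0.46 ± 0.10, adjusted p = 0.0397). Without vehicle replicate 2, 4, 6 or 8, or without IMN replicate 1, all 7 of these calls were lost, as they were with at least 1 TPM in 8 libraries. The calls of Zmat3 and Dusp11 were also lost with median-ratio scaling (adjusted p = 0.0526 and 0.0521), quantile normalization (0.0617 and 0.0544) and eBayes without a trend (0.0509 and 0.0638). Angptl7 (adjusted p = 0.00746) and Muc6 (0.00855) had the smallest p of the 13 and were under 1 TPM in every library of both groups. Angptl7 lies opposite Mtor, so its reads are uncertain if counted without strand.

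The coding genes nearest to a rise were Ccdc106 (0.53 ± 0.14, adjusted p = 0.108), Syt16, a synaptotagmin (0.69 ± 0.19, adjusted p = 0.15), Ube2cbp (0.72 ± 0.20, adjusted p = 0.153), Arfip2 (0.32 ± 0.09, adjusted p = 0.173) and Mib1, a ubiquitin ligase of Notch signalling (0.38 ± 0.11, adjusted p = 0.174). None of them passed the test. Ccdc106 ranged from 22.8 to 40.4 TPM with vehicle and from 36.0 to 65.7 TPM with IMN.

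Gene lists for the drug, the tissue and stress gave no call outside the noncoding RNAs. Of 11 tested targets of imipramine, among them Hrh1 (0.57) and Htr2a (0.41), 0 were called by limma and 0 had an unadjusted p under 0.05, with a median of 0.25. Of 22 immediate-early genes, which report recent neuronal activity, 0 were called and 0 had an unadjusted p under 0.05, with a median of 0.00. Fos was at 2.74, 24.4 and 37.6 TPM with vehicle and 4.74, 26.7 and 41.6 TPM with IMN. The 11 tested genes of monoamine synthesis and transport and the 26 monoamine receptors gave 0 calls, and 1 receptor, Htr2b, was lower at an unadjusted p under 0.05 (-1.17, adjusted p = 0.418).

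Of 16 genes of the unfolded protein response 13 had a difference under 0 and 2 an unadjusted p under 0.05, the chaperones Pdia4 (-0.47, adjusted p = 0.186) and Sdf2l1 (-0.48), and 0 were called. Of all genes 7.41% were lower at that threshold. Gq signalling (15 genes, median 0.11) had Plcb3, a phospholipase, at an unadjusted p under 0.05 (-0.34, adjusted p = 0.213). The 20 genes of cAMP and CREB signalling (median 0.01) and the 15 of glucocorticoid and CRH signalling (median 0.10) had none at that threshold. Prkcd, which marks neurons of the central amygdala, had a median of 34.0 TPM with vehicle and 15.1 TPM with IMN (-0.93, adjusted p = 0.477). Among the other amygdala neuropeptide genes, Cck (0.61), Crh (0.58) and Tac2 (0.51) had unadjusted p-values over 0.05. Of the partners of BRD1 in acetyltransferase complexes, Kat6a stood at -0.25 (adjusted p = 0.51) and Kat6b at 0.20, and 0 of 9 genes were called.

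Cell type markers gave 0 calls by limma, and those of glia and vessels leaned lower with IMN. All 8 oligodendrocyte markers were lower with IMN at an unadjusted p under 0.05, Mbp and Opalin (-0.88) among them, with a median of -1.02 and the smallest adjusted p at 0.338, and their sum was between 2338 and 16428 TPM with vehicle and between 1165 and 6842 TPM with IMN. Of 7 microglia markers 5 were lower at that threshold (median sum 393.4 against 322.3 TPM), as were 3 of 6 endothelial markers (median sum 182 against 140 TPM), 3 of 5 markers of oligodendrocyte precursors and 1 of 7 astrocyte markers. No neuron marker was, 4 of 6 had a difference over 0, and their sums were 2447 to 3108 against 2307 to 3731 TPM. Over all genes tested, 7.41% were lower at an unadjusted p under 0.05. Of the choroid plexus markers 5 of 9 and of the striatal markers 6 of 8 had a difference under 0, with 0 at an unadjusted p under 0.05. In bulk tissue, fewer cells of a type and less RNA per cell cannot be told apart. The noncoding differences are given below also in fits that take striatal, oligodendrocyte and choroid plexus markers into account. No fit took the microglia, endothelial, precursor or astrocyte markers into account.

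**Figure D5:**
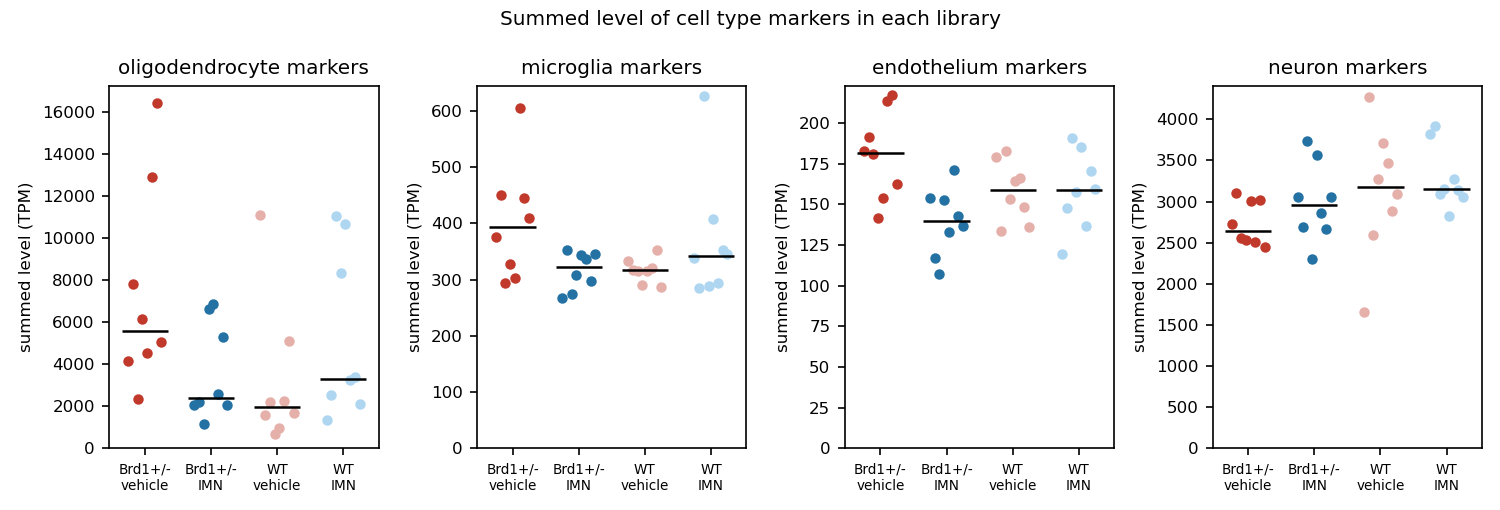
Summed level in TPM (y axis, from 0) of the markers of oligodendrocytes, microglia, endothelium and neurons in each library, by group on the x axis; points are libraries and bars are group medians. The oligodendrocyte, microglia and endothelium sums have lower medians with IMN in Brd1+/- mice, and all of them overlap between the groups.

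The amygdala punches also varied in neighbouring tissue. Markers of striatal projection neurons summed to over 2000 TPM in 3 vehicle and 3 IMN libraries, and markers of the choroid plexus to over 500 TPM in 3 vehicle and 3 IMN libraries, while no gene of either list was at 0 in all 16. Without the striatum-rich libraries 48 genes were called, 46 of them lower, and without the choroid-rich libraries 54 were called, 53 of them lower. With the striatal, oligodendrocyte and choroid plexus scores as covariates 74 genes were called, 72 of them lower. Of the 188 genes, 184 still entered the test in the first of these fits, 180 in the second and 188 in the third, and every one of them kept its direction. The 7SL copies, Scarna9, Gm22009, Mir487b, Gm27379, mt-Th and mt-Tl2 kept their calls in all 3. mt-Tp and mt-Ts2 lost theirs without the striatum-rich and without the choroid-rich libraries, Gm44322 without the striatum-rich libraries and with covariates, and Gm24339, Mir1963, Gm26498, Angptl7 and the 7 coding genes named above with at least 1 TPM in all 3. These fits hold fewer libraries or more terms. Where calls were lost, mt-Tp stood at 0.67 without the striatum-rich and 0.74 without the choroid-rich libraries, mt-Ts2 at -0.86 and -0.77, and Gm24339 at -4.86, -3.62 and, with covariates, -4.99. Mir1963 stood at 2.88, 3.77 and 2.72 in the same order.

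The same drug in WT mice gave no such difference. In 16 libraries that share none with the Brd1+/- comparison, 0 of 23644 genes were called by limma (0%), with 1084 (4.58%) at an unadjusted p under 0.05, 624 lower (2.64%) and 460 higher (1.95%). Only 75 of the 184 genes lower in Brd1+/- mice were high enough to be tested in WT mice, and over these 75 the median log2 difference was 0.07 in WT and -1.77 in Brd1+/- mice. The test of the difference itself, the genotype by IMN interaction over 32 libraries, called 143 of 26673 genes (0.536%). The IMN minus vehicle difference was higher in Brd1+/- than in WT mice for 1 of them (0.00375%) and lower for the others (0.532%). Of the 188 genes of the Brd1+/- comparison, 107 were among these 143 interaction calls. At an unadjusted p under 0.05 there were 2464 genes (9.24%), 1741 lower (6.53%) and 723 higher (2.71%). The overlap of the calls follows in part from the Brd1+/- libraries that both fits share. The filter also let a gene enter the interaction fit through the Brd1+/- vehicle libraries alone. All 188 genes entered that fit, although most of the 184 lower ones were too low to be tested in WT mice. How many of the 143 or of the 107 entered through Brd1+/- vehicle libraries alone was not counted.

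For 7SL RNA the interaction was -4.68 ± 0.46 (adjusted p = 1.13e-07), with WT means of 2.92 TPM under vehicle and 5.17 TPM under IMN. For Malat1 it was -2.26 ± 0.21 (adjusted p = 3.29e-08), with WT means of 264 and 398 TPM. Scarna9 was too low to be tested in WT mice, and its interaction of -3.98 ± 1.13 did not pass the threshold (adjusted p = 0.143). Among the mitochondrial tRNAs, mt-Th averaged 41.1 TPM in WT vehicle and 76.4 TPM in WT IMN mice (log2 difference 0.94, adjusted p = 0.206 within WT), and its interaction was -2.84 ± 0.22 (adjusted p = 1.44e-09). mt-Tl2 gave -2.56 (adjusted p = 7.55e-09), mt-Tp 0.84 (adjusted p = 0.0133) and, although neither was called in Brd1+/- mice alone, mt-Tg -1.63 (adjusted p = 4.03e-04) and mt-Tr -1.29 (adjusted p = 8.21e-04). Of the 7 coding genes named with at least 1 TPM, none differed between genotypes at an adjusted p under 0.05, the nearest being Abcg2 (-1.25 ± 0.31, adjusted p = 0.0667).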

How the data were processed

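RNA from amygdala punches was sequenced (TruSeq libraries, per the labels), and per the study's methods and the submitters' processing notes the authors trimmed reads with Trimmomatic, checked them with FastQC, aligned them to GRCm38 with HISAT2 2.1.0 and quantified genes with StringTie 1.3.4. The values the authors deposited are TPM, 52636 genes by 48 libraries. Read strand and depth are not given in the sources used here, so no counting interval was computed.

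Genes were matched to GENCODE M21 (GRCm38, 99.7% of IDs) and sorted into 6 classes by biotype, exon number and position in introns. Limma 3.58.1 (R 4.3.3, eBayes with a trend) was fitted to log2(TPM + 0.1) of genes with at least 0.1 TPM in at least 8 libraries, a scale that shrinks the change of faint genes. A gene was called where its p-value, adjusted after Benjamini and Hochberg, was under 0.05. All tests were two-sided. Single values took exact permutation tests over 12870 arrangements. P-values measure the spread between separate mice.

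The comparison, its gene lists and the rule for named genes were chosen with earlier results of these data known. Named were Brd1, Scarna9, mt-Tp, every mitochondrial tRNA, the 10 calls per direction with the largest difference and at least 1 TPM, 5 coding genes per direction by size among the calls and 5 by p, the 2 smallest p of each class, intron hosts and list members. Gm45193, Gm26461, Scarna2, Snord71, Mir376c, Rn7s6, Gm47299, Malat1 and the chromosome 12 region were singled out after their values were seen. The 3 fits on cell types were chosen after seeing the data. The main fit was tested on simulated data. Changes were planted only in genes more abundant in IMN mice than most of the lower calls, so changes in faint genes were not covered. The 7SL sequence is not reported here.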

Additional observations from a re-analysis of the deposited data

Results flagged for a closer look

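The difference between IMN and vehicle was tested against that in WT mice with an interaction term (limma, 32 libraries), and 18 named genes passed at an adjusted p under 0.05. For 17 of them the IMN minus vehicle difference was lower in Brd1+/- than in WT mice. On the log2 scale the interaction was -6.60 for Mir487b, -5.81 for Gm22009, -5.59 for Gm27379, -5.44 for Gm47295, -4.71 for Rn7s2, -4.68 for Rn7s1 and -4.08 for Gm25252. It was -3.74 for Gm37899, -3.11 for 4933407I08Rik, -3.06 for Gm42908, -2.58 for Gm37814 and -1.78 for Muc6. Among the mitochondrial tRNAs it was -2.84 for mt-Th, -2.56 for mt-Tl2, -1.63 for mt-Tg, -1.46 for mt-Ts2 and -1.29 for mt-Tr, and mt-Tp had the only positive value at 0.836. In the Brd1+/- comparison Mir487b, Gm25252, Gm37899, Gm42908 and Gm37814 had entered the test through the vehicle libraries alone.

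Among the groups of 8 libraries of the named genes, 9 held 1 library that lay far from the others, by the gap to its nearest neighbour over the group's range, which is 7.14% of the groups tested where chance gives about 5%. In Brd1+/- vehicle mice, replicate 4 was highest for Gm44322 (18.2 TPM, gap over range 0.64), Gm26498 (9.77 TPM, 0.694) and Gm37899 (2.18 TPM, 0.59), and replicate 7 was lowest for mt-Tl2 (141 TPM, 0.688). In Brd1+/- IMN mice, Scarna9 was above 0 in replicate 1 alone and Gm27379 in replicate 6 alone (gap over range 1.00 for both). Replicate 5 was highest for Angptl7 (0.448 TPM, 0.722) and mt-Ty (326 TPM, 0.614), and replicate 1 for mt-Tt (169 TPM, 0.611).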

How the results depend on the processing

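The 188 calls became 294 without a filter, 23 with at least 1 TPM in 8 libraries, 90 after quantile normalization and 296 in a fit of all 48 libraries, and stayed between 137 and 256 with the other planned settings of pseudocount, scaling, trend and sample codes. The term for the sample codes divided mice with lower and higher codes within each group. It did not adjust for the separate code ranges of vehicle and IMN mice. With this term 77.3% of 185 calls were not protein-coding and 38 were multi-exon coding. Without striatum-rich libraries 48 genes were called, without choroid-rich ones 54 and with marker scores as covariates 74. Leaving out single libraries gave 89 to 174. The 188 genes kept their direction wherever they were tested. Whether the replicate numbers pair the mice was not settled. Same-numbered pairs had a median r of 0.117 and pairs with other numbers -0.0268. Of 8 same-numbered pairs 4 were correlated over 0.1, and 2 of 8 libraries were closest to their own number. With the replicate block 87 genes were called, 84 of them among the 188. Mir1963, Gm26498, Muc6 and the 7 coding genes named with at least 1 TPM lost their calls there.

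Multi-exon coding genes alone gave 1 call in the fit of all 48 libraries (Muc6), 1 with marker scores as covariates (Tcp11l1), and 0 to 1 when single libraries were left out. The interaction gave 86 calls with a pseudocount of 0.01, 15 with at least 1 TPM and 63 after quantile normalization. The summed small RNA level passed its threshold without vehicle replicate 1 (adjusted p = 0.0345, exact permutation test) or IMN replicate 4 (0.0401), and its log2 difference ran from -0.256 to -0.167. The sums near 0 changed sign when single libraries were left out, from -0.00619 to 0.0285 for multi-exon coding, from -0.106 to 0.0179 for single-exon coding and from -0.0297 to 0.0189 for other noncoding genes. The uncalled Kpna4 (-0.025) and mt-Tt (-0.15) changed sign with marker covariates, and mt-Tc (0.061) and mt-Te (0.087) without choroid-rich libraries. The cause of these changes was not tested, and without read depth the reads behind a low value remain unknown.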

Other observations

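Clustered histone genes, whose messages mostly lack a poly(A) tail, were looked at after the other lists had been seen. Of 70 such genes 52 were tested, 44 had a difference under 0 and 8 over 0, with a median log2 difference of -0.25 beside -0.03 for all genes, while 0 were called by limma and 3 were lower at an unadjusted p under 0.05. The share of all genes lower at that threshold was 7.41%.

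Red blood cell genes had differences from -0.54 to -0.25 in all 5 members, with 0 calls and 0 at an unadjusted p under 0.05, and meningeal markers ranged from -0.57 to -0.01 in the same way.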
